A study of Mus musculus with 4 samples.

Results

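Endothelial cells line every vessel, and those of the mouse intestine were picked here from single-cell RNA-seq libraries by the raw counts of 5 vessel genes. A count is a UMI, a molecular tag that stands for 1 captured RNA molecule, and a barcode stands for 1 cell or droplet. A barcode was taken when Pecam1, Cdh5, Kdr, Flt1 and Plvap summed to at least 4 UMIs, Col1a1 and Col3a1 to at most 2, Ptprc was 0 and Epcam at most 1, among barcodes that held 500 or more UMIs from 200 or more genes and whose mitochondrial share did not pass 20%. This gave 68 barcodes of the 27614 kept in both intestinal libraries and of 51471 kept in the series. Of these, 67 lay in the library labelled NPs, or 0.629% of its 10647 kept barcodes (exact binomial 95% interval 0.488 to 0.798%), and 1 lay in the untreated library of 16967.

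The series held 4 libraries, each the only one of its group: intestine from untreated mice, intestine after 1 week of NPs, brain from untreated mice and brain after 2 months of NPs. All mice were labelled WT. NPs is not spelled out in the labels, which give neither the number of animals per library nor the tissue that each strain supplied (BALB/c of 5 weeks and ICR of 6 months are named), and the series text speaks of immune cells and of colon where the sample labels say intestine. With 1 library per group no test between conditions was possible, the intestinal libraries allow no treatment ratio for endothelial cells, and all intervals below cover counting error only.

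Blood endothelium differs along the vessel tree. Arteries carry Notch and gap-junction genes, capillaries carry lipid-uptake and transport genes and, in the gut, fenestrae that let absorbed solutes pass, and post-capillary venules carry the adhesion molecules that recruit leukocytes. Lymphatic endothelium is specified by the homeobox factor Prox1, senses VEGF-C through the receptor Flt4 and guides dendritic cells by the chemokine Ccl21a, and in the gut wall it drains fluid, immune cells and, from the small intestine, dietary fat. Brain endothelium lacks fenestrae and instead seals its junctions with Cldn5 and expresses blood-brain barrier transporters.

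The 67 barcodes of the NPs library were shallow, with 974 to 9915 UMIs (median 2930) and a median of 1601 genes, beside a median of 6289 UMIs over all kept barcodes of that library. Their median mitochondrial share was 3.00%, beside 6.60% over the kept barcodes. In that library 46.5% of all barcodes lay over the 20% mitochondrial limit, beside 16.7% in the untreated intestinal library, so the kept fraction differed between the libraries. Another 33 kept barcodes of the NPs library had a sum of at least 4 and were excluded, 29 of them by Epcam. Those 29 held a median of 12 of 25 endothelial genes outside the rule, beside 15 in the 67 taken. The NPs intestinal library shared 104 barcode sequences with the untreated intestine, 66 with the untreated brain and 60 with the NPs brain. Of the 67 barcodes, 2 occurred in the untreated brain library, where neither met the rule.

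The single untreated barcode did not carry the label. It met the rule by 4 UMIs of Pecam1, an adhesion molecule also found on leukocytes and platelets, and held 0 UMIs of Cdh5, Kdr, Flt1 and Plvap. Of 25 endothelial genes outside the rule it held 2, Cd34 and Calcrl, at 1 UMI each. It held 716 UMIs of Mcpt1, 695 of Mcpt2 and 32 of Cpa3, proteases of mast cells, and 9 of Fcer1a and 3 of Kit, among 6981 UMIs in all. Cma1 and Hdc, other mast cell genes, were at 0. In the untreated library 12 kept barcodes had a sum of at least 4, and 11 of them were excluded by Ptprc, the leukocyte antigen. Among barcodes of that library that met the other limits, none met the lymphatic criterion described below. All later results therefore describe the 67 barcodes of the NPs library.

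Every selecting gene was widespread in the 67 barcodes, and these values are a description because they chose the members. Counts are written as UMIs in barcodes. Pecam1 had 270 UMIs in 57 barcodes, Plvap 345 in 57, Flt1 315 in 54, Kdr 256 in 54 and Cdh5 149 in 48. All 5 genes were found together in 28 barcodes, and the sum ran from 4 to 61 with a median of 16. At the edge of the rule, 6 barcodes had a sum of 4 and held a median of 9.5 of the 25 outside genes (8 to 16), and 8 barcodes just below it, at a sum of 3, held a median of 7 (1 to 14). Barcodes on either side of the limit thus held overlapping numbers of endothelial genes.

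The 25 endothelial genes outside the rule were raised as a list, and 66 of the 67 barcodes held at least 3 of them. That minimum was set after the data were seen. It is loose, since the 8 barcodes just below the rule held a median of 7. Holding 3 of these genes therefore does not settle the label of a single barcode. These 25 genes include Egfl7 (a secreted vessel factor), Emcn (a sialomucin), Tie1 and Tek (angiopoietin pathway receptors), Esam (a junctional adhesion molecule), Ramp2 (the adrenomedullin receptor partner) and Ptprb (a vessel phosphatase). Per barcode 2 to 23 of them were found, with a median of 15, and 1 barcode held fewer than 3. Levels were compared as summed UMIs scaled to a total of 1000000 (CPM) between the 67 barcodes and the 10580 other kept barcodes of the library, and a gene was called at 2-fold after adding 10 CPM to each side. All 25 were called higher, beside 6.71% of the 12227 genes with at least 20 UMIs in the higher group. Their median log2 ratio was 5.24, beside -0.17 over all genes. Egfl7 was found in 86.6% of endothelial barcodes, beside 1.3% of epithelial-type barcodes (at least 2 UMIs of Epcam, none of Ptprc or the selecting genes), whose median depth was 8888 UMIs.

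Genes that led the comparison with other cells were lipid, matrix, caveola and signalling genes of vessels. The 15 largest ratios belonged to Fabp4, Plvap, Flt1, Cxcl12, Ptprb, Egfl7, Kdr, Pecam1, Col4a1, Cav1, Igfbp7, Podxl, Cavin2, Tm4sf1 and Col4a2. Fabp4, a cytosolic fatty acid carrier encoded at chromosome 3 from 10204088 to 10208576 (GRCm38), reached 6666 CPM (6325 to 7021) beside 5.33 CPM in other barcodes, a ratio of 1249.7-fold (1135 to 1378). Ranges after CPM values are exact Poisson and those after ratios conditional binomial 95% intervals. Its lowest, median and highest counts per barcode were 0, 12 and 143, and 56 of 67 barcodes held it, beside 0.739% of epithelial-type barcodes. Fabp4 was thus missing from a minority of the endothelial barcodes, which the vessel types below describe. Cxcl12, a chemokine that retains leukocytes and progenitors, had 1853 CPM (1675 to 2044) beside 4.82 CPM, and per-barcode counts of 0, 3 and 38 (lowest, median and highest). Podxl, an apical sialomucin, had 875 CPM (755 to 1009.6) beside 0.978 CPM.

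Several leading genes were shared with stromal cells. In the 146 fibroblast-type barcodes (at least 4 UMIs of Col1a1 and Col3a1, no selecting gene), Igfbp7, a secreted growth factor binding protein, had 1448 CPM beside 2328 in endothelial barcodes. Col4a1, a chain of basement membrane collagen, had 521 beside 1722 CPM, and Cxcl12 275 beside 1853 CPM. Egfl7 and Ptprb had 0 UMIs in the fibroblast-type barcodes. Those 5 genes thus ranged from shared to undetected in the stromal class.

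**Figure D1:**
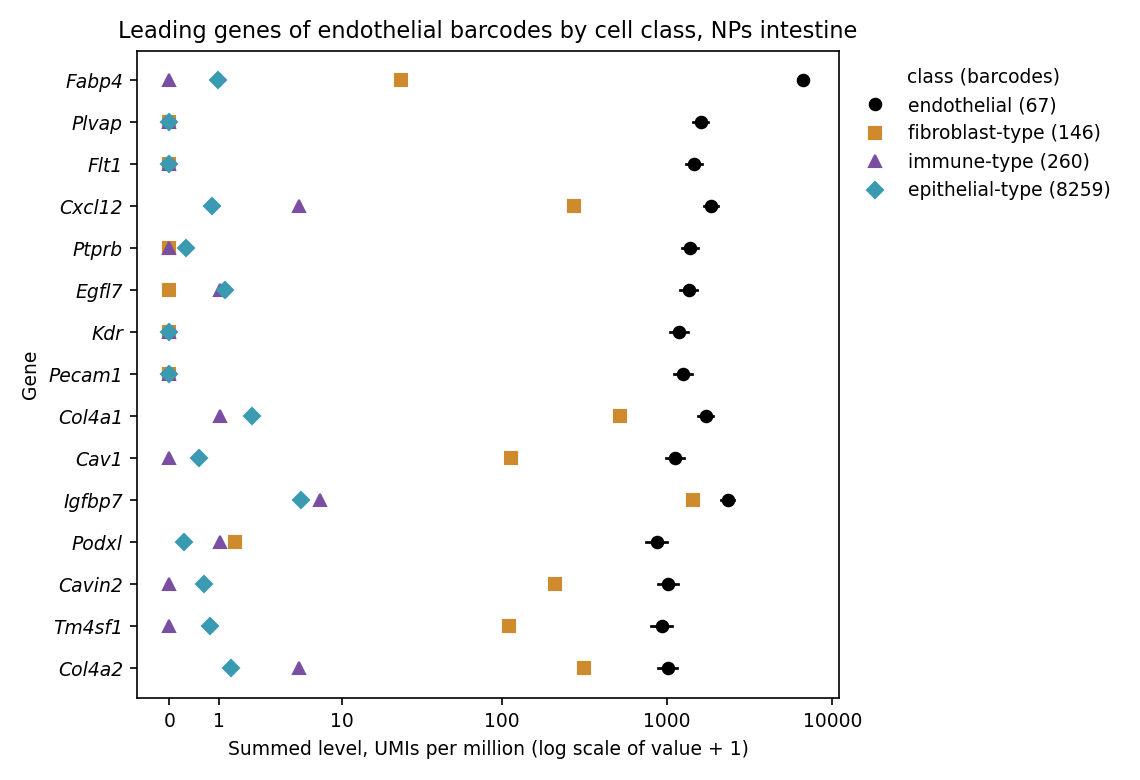
Summed level of the 15 leading genes (rows) in 4 cell classes of the NPs intestinal library, in CPM on a log axis of value + 1. Lines on the endothelial points are exact Poisson 95% intervals, and the selecting genes among them (Plvap, Flt1, Kdr and Pecam1) are 0 in the other classes by construction. Endothelial points lie to the right in every row, with Igfbp7 nearest to the fibroblast-type value.

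Promoters of leading genes are shown because endothelial transcription is driven largely by ETS and SOX family factors. RefSeq windows (GRCm38.p6, 250 bases before to 50 after a start) were found for 10 of the 15 genes. The ETS core AGGAAG, searched on both strands, occurred in 5 of those 10, beside 35.4% of 32851 promoters of the same length. The SOX core ACAAT occurred in 3 of 10, beside 31.0%. In the windows below, written 5′ to 3′ on the strand of the gene, capitals mark the ETS core or its reverse complement.
Flt1 (minus strand, chr5:147725962-147726261): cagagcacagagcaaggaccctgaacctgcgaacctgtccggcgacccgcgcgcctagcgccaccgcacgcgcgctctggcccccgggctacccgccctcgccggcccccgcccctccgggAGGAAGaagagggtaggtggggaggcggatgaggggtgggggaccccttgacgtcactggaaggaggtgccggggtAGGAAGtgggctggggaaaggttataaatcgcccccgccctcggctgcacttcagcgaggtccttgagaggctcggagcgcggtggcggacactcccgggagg
Kdr (minus strand, chr5:75978406-75978705): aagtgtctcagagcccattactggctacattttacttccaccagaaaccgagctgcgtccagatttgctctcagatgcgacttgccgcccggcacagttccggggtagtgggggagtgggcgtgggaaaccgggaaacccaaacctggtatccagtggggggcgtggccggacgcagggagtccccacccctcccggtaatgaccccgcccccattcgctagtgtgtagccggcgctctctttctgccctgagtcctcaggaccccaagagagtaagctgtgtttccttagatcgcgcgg
Egfl7 (plus strand, first of 3 starts, chr2:26580833-26581132): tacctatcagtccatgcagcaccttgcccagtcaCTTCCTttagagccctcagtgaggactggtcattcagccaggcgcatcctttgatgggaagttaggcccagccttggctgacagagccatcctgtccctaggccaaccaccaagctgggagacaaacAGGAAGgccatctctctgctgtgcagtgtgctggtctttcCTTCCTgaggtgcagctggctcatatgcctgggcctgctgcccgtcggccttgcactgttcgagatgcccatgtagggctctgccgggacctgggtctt
Cav1 (plus strand, first of 2 starts, chr6:17306085-17306384): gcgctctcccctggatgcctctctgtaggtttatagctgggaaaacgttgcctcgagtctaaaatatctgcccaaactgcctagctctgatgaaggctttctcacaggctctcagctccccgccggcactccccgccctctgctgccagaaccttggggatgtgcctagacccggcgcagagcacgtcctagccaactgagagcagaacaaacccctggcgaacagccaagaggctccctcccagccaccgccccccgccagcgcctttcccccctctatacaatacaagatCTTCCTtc
Flt1 held 2 matches, Egfl7 3, Cav1 1 and Kdr none in this window. Flt1 and Kdr encode the VEGF receptors of blood endothelium, Cav1 the coat protein of caveolae. The windows of Cxcl12 and Col4a1 held no ETS match. A match is a description of letters and was not linked to any level.

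Vessel types were separated by gate genes counted per barcode, and among the 67 barcodes the lymphatic type stood clear of the rest. Lymphatic-like barcodes held at least 3 UMIs from at least 2 of Prox1, Lyve1, Mmrn1, Ccl21a and Reln. Of the 67 barcodes, 9 met this (13.4%, 6.33 to 24.0%), with 18 to 163 UMIs of the 5 genes and a median of 88. Of the other 58, 56 held 0 of these UMIs and 2 held 1, so none of the 67 lay between 1 and 18. The remaining 58 barcodes are called blood endothelial here. Among them 6 were arterial-like (8.96% of the 67, 3.36 to 18.5%), 8 venous-like (11.9%, 5.30 to 22.2%) and 44 met neither gate (65.7%, 53.1 to 76.8%). The arterial and venous gates needed at least 2 UMIs from at least 2 genes (Gja4, Gja5, Hey1, Bmx, Sema3g and Fbln5, or Ackr1, Selp, Sele, Lrg1 and Madcam1). A barcode also needed more UMIs of its own gate than of the other. These gates were less clear, since 15 of the 67 barcodes held 1 arterial UMI and 6 held 2.

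The selecting genes were low in lymphatic-like barcodes. The 9 lymphatic-like barcodes had sums of 4 to 14 of the selecting genes (median 5), beside 4 to 61 (median 19) in the blood type. Among barcodes that met every other limit, 11 more met the lymphatic gate at sums of 0 to 3, with a median of 45 gate UMIs and of 8 of the 25 outside genes. The share of 13.4% thus depends on the selecting genes and gives no share of the tissue. In the brain libraries, selected by the same rule, 0 of 365 and 0 of 258 barcodes were lymphatic-like, which allows shares of up to 1.01 and 1.42% (exact binomial).

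**Figure D2:**
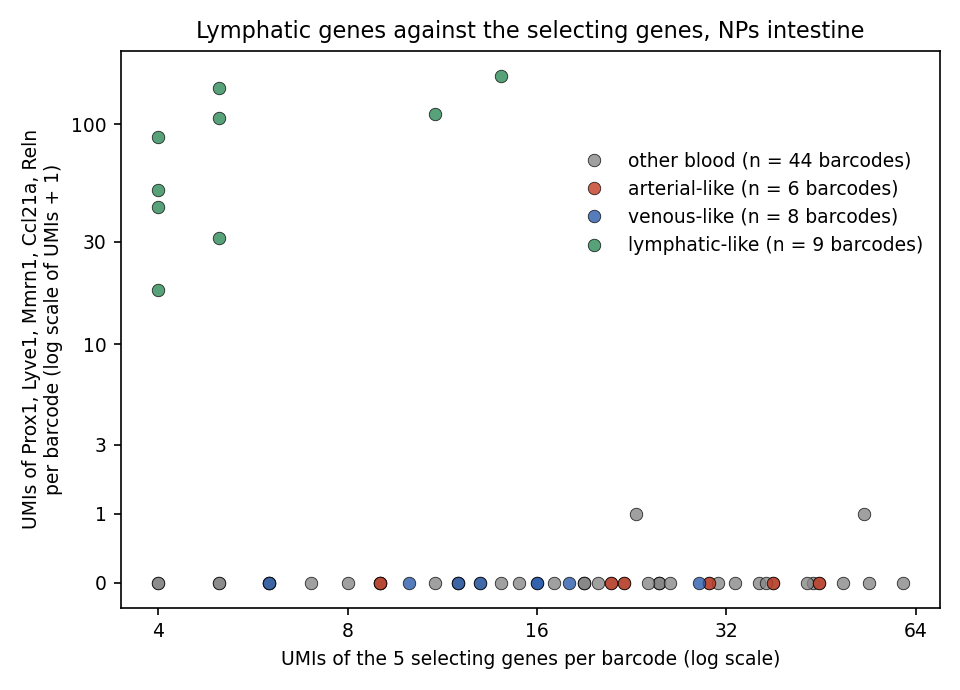
UMIs of the 5 lymphatic gate genes (vertical, log scale of UMIs + 1) against UMIs of the 5 selecting genes (horizontal, log scale), 1 point per endothelial barcode of the NPs intestine, coloured by vessel type. The 9 lymphatic-like points lie at 18 to 163 gate UMIs and, except for 2 of them, at sums of 4 or 5, and the blood types lie at 0 or 1.

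The 5 lymphatic gate genes were at or near 0 in the 58 blood barcodes. Ccl21a, the chemokine that draws dendritic cells and T cells, had 485 UMIs in 9 barcodes and none in the blood type, and was at least 897-fold higher (a value of 0 counted as 3 UMIs over the group). Per barcode Ccl21a ran from 2 to 112 with a median of 70, so 1 of the 9 was nearly without it while holding 11 UMIs of Mmrn1. Mmrn1, a secreted multimerin, had 118 in 9, Lyve1, a hyaluronan receptor, 76 in 8, and Reln, a secreted matrix glycoprotein, 47 in 9, and all 3 were at 0 in the blood type. Prox1 had 29 in 8, beside 2 in 2. These 5 genes defined the gate and are given as a description. Mouse genomes carry near-identical copies of Ccl21a, so the split of its reads between copies is uncertain.

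Some genes outside the gate followed the same split, while 691 of 1201 tested genes differed less than 2-fold between the types. The comparison had been planned for at least 10 lymphatic-like barcodes, and the minimum was lowered to 9 after the count was seen. Among the lymphatic list of 19 genes, 10 had at least 20 UMIs in the higher group, and all 10 were called higher, 5 of them the gate genes, beside 3.75% of 1201 genes tested. Flt4, the VEGF-C receptor, had 35 in 9 beside 9 in 9 (21.6-fold, 10.2 to 51). Igfbp5, a growth factor binding protein, was at least 181-fold higher with 98 in 9, and Fgl2, a secreted immune regulator, had 88 in 9 beside 1 in 1. Cp (ceruloplasmin), the transcription factor Maf and the siderophore-binding protein Lcn2 had 32 in 8, 31 in 9 and 22 in 7 and were 0 in the blood type. Fxyd6, a regulator of the sodium pump, had 35 in 7 beside 2 in 1. Pdpn (podoplanin) had 13 in 7 and Thy1 11 in 5, with none in the blood type. Cldn5, the junction protein known from brain vessels, was 5.66-fold (3.71 to 8.66) the blood level and was found in 8 of 9 lymphatic-like and 11 of 58 blood barcodes.

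Several blood genes were at or near 0 in the lymphatic-like barcodes. Ly6c1, a surface antigen of blood endothelium, had 0 UMIs and was at least 20.9-fold lower. Of the selecting genes, given as a description because they chose the barcodes, Flt1 had 0 UMIs beside 315 in 54, Plvap, the diaphragm protein of fenestrae and caveolae, 1 beside 344 in 56, and Kdr 22 in 9 beside 234 in 45. Fabp4 had 4 UMIs, all in 1 barcode, beside 1428 in 55, and Cxcl12 1 beside 397 in 41. Cd36 (fatty acid uptake), Fabp5, Cd34, Rflnb, Kitl (stem cell factor) and the homeobox factor Nkx2-3 were at 0 UMIs, with bounds of at least 5.65- to 10.8-fold lower. In all 45 genes were called higher (3.75% of those tested) and 465 lower (38.7%), and the median log2 ratio over all tested genes was -0.74. With that median set to 0, 90 were called higher and 277 lower. A gene high in the lymphatic type needed 20 UMIs among 32815, beside 20 among 181999 for a gene high in the blood type, so the counts of the 2 directions cannot be set against each other.

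Several lists of blood genes were low in the lymphatic type, beside the 38.7% of all tested genes called lower. Of the capillary list 7 of 8 measured genes were called lower, of basement membrane genes 9 of 11, of tone and coagulation genes 7 of 9 and of leukocyte adhesion genes 6 of 9, with none higher. Of 18 heat shock and immediate early genes, 14 were called lower, with Atf3 at 30.5 beside 473 CPM and Fos at 396 beside 1890.1 CPM. The median mitochondrial share was 2.61% in the lymphatic and 3.41% in the blood type, and its part in this difference was not tested. Interferon genes were called lower in 7 of 12, with a median log2 ratio of -1.22 beside -0.74 over all genes, and Ifi27l2a higher.

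Other genes were held in common by both types. Cav1 had 43 in 9 lymphatic-like barcodes and a ratio to the blood type of 1.2-fold (0.841 to 1.67). Cavin2, which shapes caveolae, was 2.24-fold (1.64 to 3.02) the blood level. Gpihbp1, which carries lipoprotein lipase across capillary endothelium, had 14 in 7 in the lymphatic type and 53 in 14 in the blood type, a ratio of 1.47-fold (0.751 to 2.68), which includes 1. Of 9 caveola genes, 7 were measured, 1 (Cavin2) was called higher and 2 (Ehd4, Nrp1) lower. One list of another cell type stood out: 1 lymphatic-like barcode held 19 of the 23 pericyte-list UMIs of all 67 barcodes, 11 of them Rgs5, and its part in these results was not tested.

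**Figure D3:**
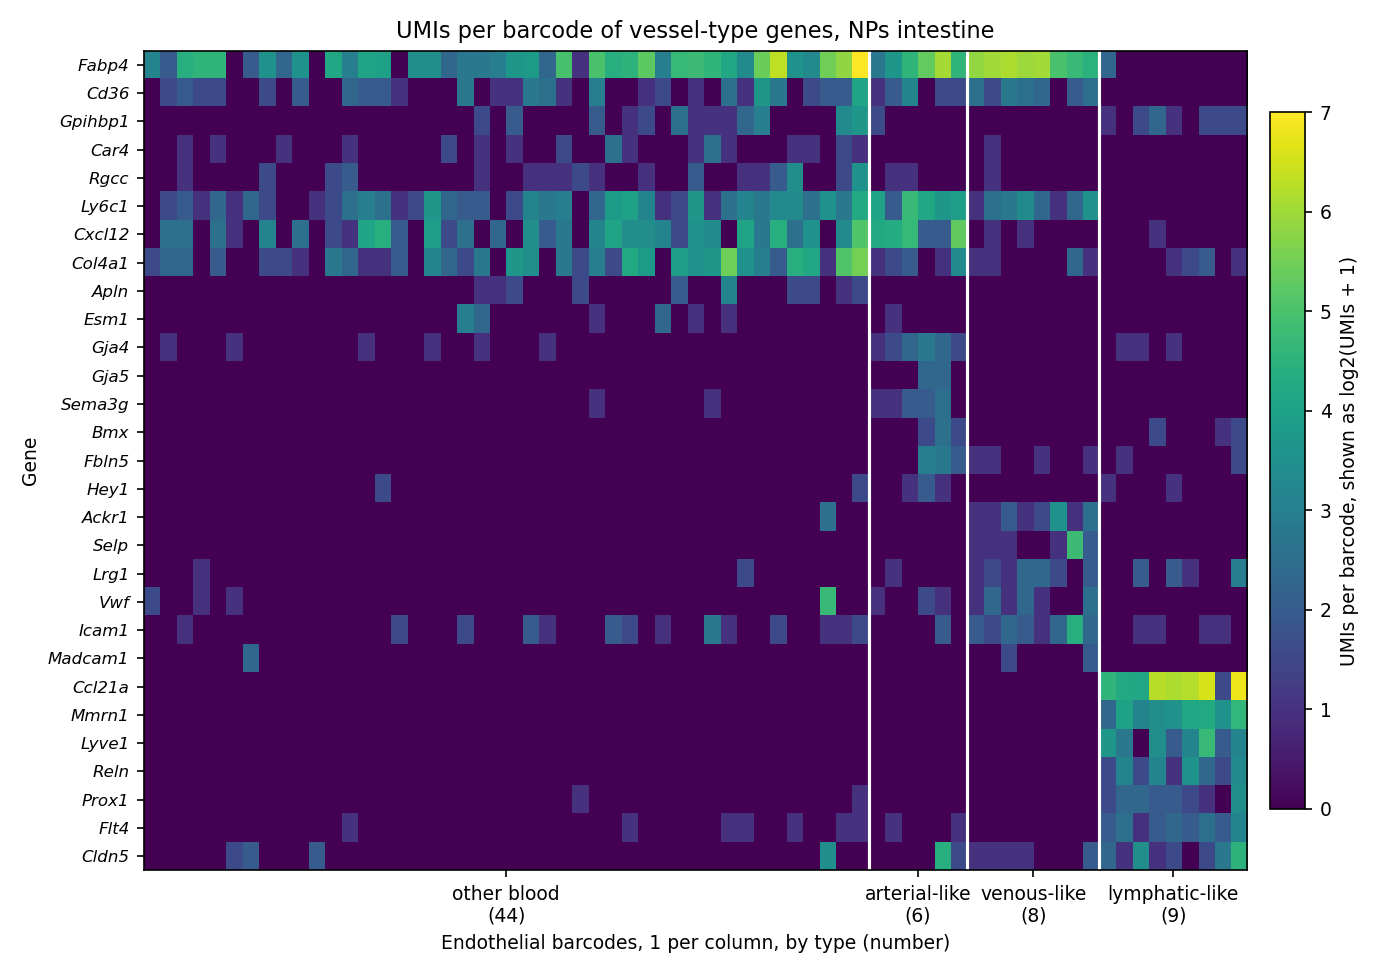
UMIs per barcode, as log2(UMIs + 1) in colour, for 29 genes (rows) in the 67 endothelial barcodes of the NPs intestine (columns, ordered by vessel type and then by depth). The lymphatic block holds Ccl21a, Mmrn1, Lyve1, Reln, Prox1 and Flt4 and almost no Fabp4, while Fabp4 is present in all 6 arterial-like and all 8 venous-like barcodes.

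Of 8 genes of the arterial list with at least 20 UMIs, 6 were highest among the blood types in the 6 arterial-like barcodes. These were Cxcl12, Gja4, Efnb2, Sox17, Fbln5 and Edn1, while Eln was highest in the venous-like and Alox12 in the other blood barcodes. Gja4 and Fbln5 belong to the gate, so the choice of barcodes fixed their place. The share of all genes highest in each blood type was not counted, here or for the basement membrane, capillary and sprouting lists below. Of the gate, Gja4 and Gja5 (gap-junction connexins) had 19 in 6 and 8 in 2, Sema3g 13 in 5, Fbln5 (an elastic fibre protein) 16 in 3 and Bmx (a tyrosine kinase) 9 in 3. Outside the gate, Efnb2, the arterial ephrin, had 12 in 5, 4.28-fold (1.76 to 10.4) its level in the 44 other blood barcodes, and 0 in the venous-like ones. Jag1, a Notch ligand, was 5.23-fold (1.97 to 14.3), and Clu 21.4-fold (6.05 to 115) with its UMIs in 3 of 6 barcodes. Sox17, an arterial transcription factor, was 2.38-fold (0.98 to 5.43), an interval that includes 1. Epas1, the hypoxia-inducible factor of endothelium, was 2.44-fold (1.71 to 3.45). Nr2f2, the factor that sets venous identity, had 0 UMIs in the arterial-like type, beside 11 in 5 in the venous-like and 22 in 7 in the lymphatic-like type.

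The 8 venous-like barcodes held leukocyte adhesion genes of their gate, and Icam1. The gate genes (Ackr1, Selp, Sele, Lrg1 and Madcam1) chose these barcodes and are given as a description. Lrg1 was not confined to them. It was found in 7 of 8 venous-like barcodes (up to 4 UMIs) and 4 of 9 lymphatic-like ones (up to 7 UMIs). Among the others it was found in 1 arterial-like and 2 other blood barcodes. Selp (P-selectin) had 34 in 6 and no UMI in any other endothelial barcode, but 27 of the 34 came from 1 barcode. Ackr1, the chemokine-binding receptor of venules, had 25 in 8 beside 5 in 1 in the other blood barcodes. Outside the gate, Icam1, a ligand of leukocyte integrins, had 41 in 8, 6.93-fold (4.18 to 11.6) the other blood level, with 20 of the 41 in 1 barcode. Vwf, the platelet-binding clotting protein, had 16 in 6 beside 30 in 4 (2.53-fold, 1.29 to 4.78), and 26 of those 30 came from 1 barcode, which also held the 5 Ackr1 UMIs of its type. Aqp1, a water channel, was 8.52-fold (5.12 to 14.5). Madcam1, the gut addressin that binds lymphocyte integrins, had only 9 UMIs in 3 of the 67 barcodes, 2 of them venous-like, and Sele (E-selectin) 1 UMI.

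Fabp4 and Cxcl12 ran in opposite order between arterial-like and venous-like barcodes. Fabp4 counts per venous-like barcode were 21, 59.5 and 69 (lowest, median and highest), beside 6, 23 and 65 in the arterial-like and 0, 11.5 and 143 in the other blood barcodes. Its venous level was 2.15-fold (1.91 to 2.43) that of the other blood barcodes. Cxcl12 counts were 3, 18.5 and 38 in the arterial-like barcodes and 0, 0 and 1 in the venous-like ones, which do not overlap. The venous-like barcodes also had a median mitochondrial share of 8.58%, beside 1.25% in the arterial-like and 3.59% in the other blood barcodes, and the part of this difference in the results was not tested.

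The 44 other blood barcodes held 58.6% of all endothelial UMIs, 81.7% of those of the basement membrane list and 63.6% of those of the capillary list. Of 12 basement membrane genes with at least 20 UMIs, 10 had their highest level among the blood types there. The share of all genes highest there was not counted, so this count and the capillary count below are descriptions. Col4a1 had 340 in 36 and per-barcode counts of 0, 4 and 45, beside 7 in 4 in the venous-like barcodes (10.3-fold lower, 4.93 to 25.7). Col4a2, its partner chain, was 13.6-fold lower (4.58 to 66.5) in the venous-like type, and Lama4, a laminin chain of vessels, had 60 in 24 and 0 in both the arterial-like and venous-like types, although the lymphatic type held 16 in 8. Hspg2 (perlecan) was 4.98-fold lower (2.08 to 15.6) in the venous-like type. Capillary genes divided. Of 10 with at least 20 UMIs, 6 were highest in these 44 (Rgcc, Gpihbp1, Car4, Ly6a, Cd300lg and Sgk1), 3 in the venous-like (Fabp4, Cd36 and Aqp1) and 1, Ly6c1, in the arterial-like barcodes. Gpihbp1 had 51 in 13, beside 2 in 1 arterial-like barcode and 0 in the venous-like ones, and Car4, a surface carbonic anhydrase, had 28 in 17. Cd300lg, an endothelial mucin receptor, had 30 in 18 and Rgcc, a cell cycle regulator high in capillaries, 47 in 18.

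Of the sprouting list the same 44 barcodes held 87.5% of the UMIs, beside 58.6% of all endothelial UMIs. All 6 genes with at least 20 UMIs were highest there among the blood types (Apln, Aplnr, Trp53i11, Lamb1, Col4a1 and Col4a2). No share over all genes was counted beside this, so it is a description. Lamb1, Col4a1 and Col4a2 are also in the basement membrane list above, so the shares of these lists are not separate results. Apln (apelin, a tip-cell peptide) had 24 in 10 and no UMI in the other types, its receptor Aplnr 31 in 17, and Esm1, a tip-cell proteoglycan, 18 in 6, with 1 UMI elsewhere, in an arterial-like barcode. Apln or Esm1 was found in 15 of the 58 blood barcodes, and 12 of those 15 also held Gpihbp1, Car4 or Cd300lg, which were found in 31 of the 58. Capillary and sprouting genes were thus not held by separate barcodes in these counts. Sparser genes of the list did not all lie there. Both Angpt2 UMIs lay outside the 44, Kcne3 had 8 in 2 arterial-like barcodes beside 2 in 2, and Adm 8 in 3 lymphatic-like barcodes beside 2 in 2. Cell cycle RNA was concentrated in 3 barcodes, with 90, 50 and 18 UMIs of the 12-gene list, or 104, 97.6 and 101 per 10000 UMIs. Mki67 (a proliferation antigen) had 16, 6 and 0 UMIs in them, and 22, 22 and 8 of the 25 endothelial genes were found. No other barcode held more than 6 such UMIs.

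Clustering of the 67 barcodes without the gates gave 5 groups and found the lymphatic type again, although it used the same counts and is no separate evidence. One cluster of 9 was the 9 gated barcodes, with 18 of 19 lymphatic genes raised. A cluster of 11 held all 8 venous-like barcodes, with Selp, Ackr1 and Vwf leading and 8 of 15 venous genes raised. A cluster of 12 held 4 of the 6 arterial-like barcodes and raised 10 of 17 arterial genes. The cluster of 13 held the other 2 arterial-like barcodes and raised 3 arterial genes (Gja4, Sema3g and Cxcl12), and the largest, of 22, was led by Kif23, Top2a and Apln, raised 5 of 14 sprouting genes and was given no name.

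Transcription factors of endothelium were raised as a list. Of 26 factors, 15 had enough UMIs in the higher group and 14 were called higher than in other cells, none lower. Over all 12227 genes 6.71% were called higher and 14.3% lower. These shares stand beside this count and the list counts against other cells in the paragraphs below. Erg, the ETS factor that maintains vessel identity, had 51 UMIs in 33 barcodes and 1008-fold (617 to 1685) the level of other barcodes. Sox18 was 739-fold (460.5 to 1199), Ets1 46.1-fold (37 to 56.8) and Fli1, another ETS factor, 83.5-fold (59.5 to 115). Klf2, induced by flow, was 5.33-fold (4.49 to 6.3). Nkx2-3, a homeobox factor known for gut vessels and mucosal addressin expression, had 98 UMIs in 35 barcodes (254-fold, 198 to 326) and none of them in the lymphatic type.

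The VEGF and angiopoietin genes called higher were receptors. In the VEGF and angiopoietin list, 5 of 10 measured genes were called higher, all receptors or co-receptors: Nrp1, Tie1, Tek, Flt4 and Nrp2. None was called lower. Nrp1, a VEGF co-receptor, had 117 in 34 in the other blood barcodes and 2 in 1 in the lymphatic type, whereas Nrp2 had 42 in 21 and 24 in 8. In the Notch list 4 of 14 genes were measured, and Notch1, Jag1 and Hes1 were called higher. In the BMP and TGF-beta list 8 of 13 were called higher, among them the receptors Eng and Acvrl1 (340.2-fold (272 to 425) and 88.9-fold (66.3 to 118)), and 1, the ligand Bmp2, lower, beside 14.3% of all genes called lower. Bmp2 and Bmp4 had 0 UMIs.

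Transport and junction genes were raised as well, and matrix genes were shared with fibroblast-type barcodes. All 8 measured genes of the caveola and fenestra list were called higher, led by Cav1 (475-fold, 397 to 568) and Cavin2 (309-fold, 260.3 to 367). All 12 measured basement membrane genes were called higher than in the 10580 other barcodes, of which the 8259 epithelial-type barcodes were the largest class. Summed over that list, endothelial barcodes had 10963 CPM, beside 17306 in fibroblast-type and 89.1 in epithelial-type barcodes. The lipid list divided: 7 of 11 were called higher, among them Cd36 (598-fold, 469 to 762), Gpihbp1 (906-fold, 599.9 to 1387) and Fabp5, and 4 lower, among them Pparg and Lipg. Of 11 measured junction genes 7 were called higher and Ocln, the tight junction protein of epithelia, lower. In the tone and coagulation list 8 of 10 were called higher and none lower. Ace, the angiotensin-converting enzyme, had 73 UMIs in 36 barcodes, Thbd, the thrombin receptor of the protein C pathway, 56 in 29 and Nos3, the endothelial nitric oxide synthase, 27 in 22.

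Secreted factors that act on neighbouring cells included several at high ratio and others at 0. Of 13 measured angiocrine genes 10 were called higher and Bmp2 lower. Kitl had 94 UMIs in 38 barcodes, Igfbp3 56 in 21 and Pdgfb, which recruits pericytes, 21 in 16. Rspo3, a Wnt amplifier of crypt stem cells, had 1 UMI, in a lymphatic-like barcode, and Wnt2 and Wnt9b had 0, which allows up to 14.0 CPM by 3 counts of the 214814 UMIs. Among chemokines and their decoy receptors, 4 of 13 were called higher (Ccl21a, Cxcl12, Ackr1 and Ackr3) and 4 lower (Cxcl9, Cxcl2, Ccl7 and Ccl2). Ccl2, Ccl7 and Cxcl9 had 0 UMIs.

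Antigen presentation genes differed between the classes of the pathway. No gene of the MHC class II list was called higher and 6 of 9 were called lower, among them Cd74, the invariant chain, with 484 CPM beside 2308 CPM, and H2-Aa with 144 beside 621 CPM. Cd74 was 1999.9 CPM in epithelial-type, 152 in fibroblast-type and 14250.3 in immune-type barcodes. At an equal 1000 UMIs it was found in 36.4% of endothelial and 15.1% of fibroblast-type barcodes, beside 62.7 and 46.6% at full depth. In the MHC class I list 6 of 11 were called higher and none lower, with H2-K1 at 2.94-fold (2.72 to 3.18) and H2-D1 at 2.36-fold (2.21 to 2.51). In the interferon list 11 of 17 were called higher and Mx1 lower. Summed over its list, MHC class I had 13081 CPM in endothelial, 11962 in fibroblast-type, 10995 in immune-type and 5855 in epithelial-type barcodes. The interferon list had 10255, 9699, 5075 and 1957 CPM in the same order. Both lists thus lay near the fibroblast-type level and were not particular to endothelial barcodes. Gbp4, an interferon-induced GTPase, had 666 CPM (561 to 784) beside 10.7 CPM, Ifitm3 3994 beside 404 and Iigp1 1019 beside 157 CPM. Endothelial barcodes came from the NPs library only, so no difference by treatment can be given. Among the 18 heat shock and immediate early genes, 4 were called higher (Ier3, Zfp36, Egr1 and Junb). Ier3 had 109 in 8 in the venous-like barcodes, 8.46-fold (6.13 to 11.8) the other blood level.

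Epithelial, leukocyte and fibroblast markers were mostly low in the endothelial barcodes, and smooth muscle and pericyte UMIs were few. All 12 epithelial genes were called lower than in other cells, with 1 to 38 UMIs per barcode (median 9) and at least 3 UMIs in 66 of 67. Muc2, the secreted mucin, had 568 CPM in endothelial, 484 in fibroblast-type and 606 in immune-type barcodes, beside 5634 in epithelial-type ones. The 3 classes that do not make mucus thus held it at a like low level. The leukocyte list had 0 to 8 UMIs per barcode (median 1), of which Srgn, a proteoglycan that endothelium also makes, gave 104 of 132. The fibroblast list had 0 to 4 and the smooth muscle list 0 to 5. Of 10 fibroblast genes 5 were called lower and Serping1 higher. Of 6 measured smooth muscle genes 1 was called lower, and the list had 74.5 CPM beside 66.6 in other barcodes. The pericyte list, with no gene measured, had 107 CPM beside 10.8, with 19 of its 23 UMIs in 1 lymphatic-like barcode. A doublet caller, Scrublet, did not work in the intestinal libraries, where its own threshold marked 0% of the NPs and 0.053% of the untreated barcodes, and no member scored over 0.25.

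Endothelial barcodes of the brain, picked by the same rule, were set beside the intestinal ones to show where the tissues differ. Tissue, time of treatment and library change together here, and perhaps strain, so their parts cannot be told apart. The rule gave 365 barcodes in the untreated (3.13%) and 258 in the NPs brain library (2.12%), with median depths of 4948 and 4049 UMIs. A gene was called when it differed at least 2-fold in the same direction from both brain libraries. Of 10313 genes, 565 were called higher in the intestine (5.48%) and 1164 lower (11.3%). With 50 CPM added in place of 10, 317 were called higher and 253 lower. The minimum of 20 UMIs is 93.1 CPM in the intestine, 7.73 in the untreated and 14.7 in the NPs brain, so the counts of the directions cannot be set against each other. Between the 2 brain libraries 42 of 10238 genes (0.41%) were called higher with NPs and 158 (1.54%) lower, a comparison of libraries from 1 tissue that also differ by treatment.

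Fatty acid genes were among those with the largest ratios of intestine to brain. Fabp4 had 6666 CPM beside 3.48 in the untreated brain and 0 in the NPs brain. Cd36 and Nkx2-3 had 698 and 456 CPM and 0 UMIs in both brain libraries, at least 316-fold and 206-fold higher than the NPs brain. Gpihbp1 had 312 CPM beside 1 UMI in the untreated and 0 in the NPs brain. Plvap, found in 57 of 67 intestinal barcodes, was found in 5 of 365 and 2 of 258 brain barcodes, with 1606 CPM beside 20.5 and 25.1, given as a description because it is a selecting gene in both tissues. In the brain its UMIs lay in few barcodes, with 47 of 53 in 1 untreated barcode and 19 and 15 in the 2 NPs barcodes. At an equal 1000 UMIs per barcode Plvap was found in 68.2% of intestinal barcodes and 0.281 and 0.813% of brain barcodes (66 of 67, 356 of 365 and 246 of 258 were deep enough). Slco2a1, the prostaglandin transporter, had 414 beside 1.55 and 0 CPM. Ccl21a, Mmrn1, Fgl2 and Lyve1 completed the leading 10, but their UMIs came from the lymphatic-like barcodes, and without these 9 Mmrn1 was -0.05 on the log2 scale.

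Blood-brain barrier genes were lower in the intestine almost without exception. Of 29 genes of that list 28 were called lower in the intestine and none higher, beside 11.3 and 5.48% of all genes. The median log2 ratio was -4.13 beside -0.05 over all genes. Between the brain libraries 0 of the 29 were called, beside 0.41% of all genes called higher with NPs and 1.54% lower. Slc2a1, the glucose transporter of the barrier, had 1 UMI in the intestine (4.66 CPM), beside 1487 and 1675 CPM in the untreated and NPs brain. Slco1a4 and Slco1c1, organic anion and thyroid hormone transporters, had 0 UMIs beside 1422 and 1239 CPM in the untreated brain, and Mfsd2a, the lipid transporter that limits transcytosis, 0 beside 309. Spock2 and Itm2a had 14 and 18.6 CPM beside 2724 and 2768. The efflux pump gene Abcb1a was closer, at 154 beside 807 and 1032 CPM. Cldn5 had 442 CPM and was found in 19 of 67 barcodes, beside 5382 and 6873 CPM and 355 of 365 and 255 of 258 barcodes. Of the 25 general endothelial genes outside the rule, Cldn5 was the 1 called lower and 6 were called higher (Ecscr, Myct1, Cd200, Cd93, Calcrl and Tie1).

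Ttr and Enpp2, genes of the choroid plexus epithelium, also ranked among those lower in the intestine, with 0 UMIs beside 58482 and 5056 CPM in the untreated brain. In the NPs brain 1 of 258 barcodes held 23945 of 24094 UMIs of Ttr. The deepest barcode picked in the untreated brain held 81885 UMIs. Of the brain barcodes 22 and 14 (untreated and NPs) scored over 0.25 for doublets, and with these left out the log2 ratios of Ttr and Enpp2 were -10.89 and -7.38, beside -10.79 and -7.28 with all barcodes. With 0 UMIs of Epcam, Col1a1 and Col3a1 required they were -3.68 and -2.04.

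**Figure D4:**
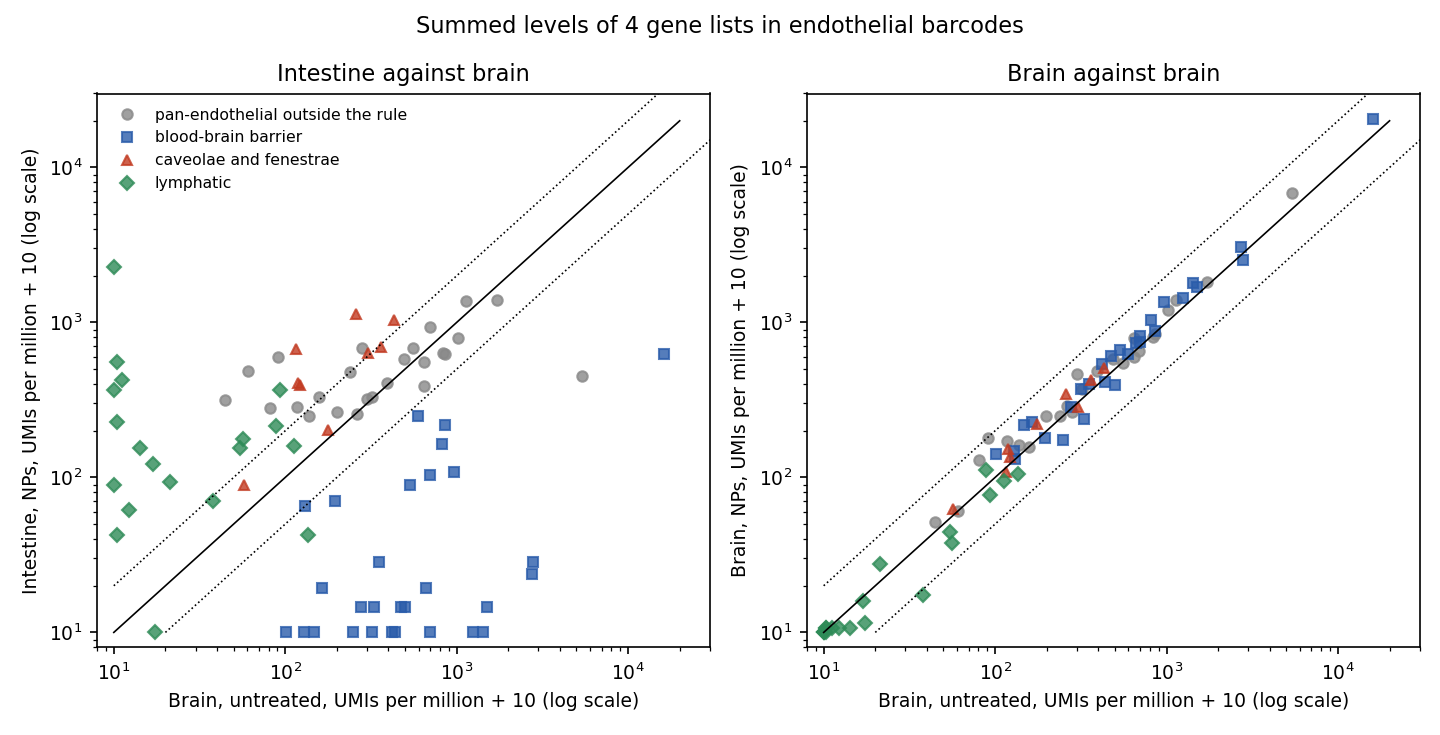
Summed level of 4 gene lists in endothelial barcodes, in CPM + 10 on log axes. The left panel sets the NPs intestine (67 barcodes) against the untreated brain (365), the right panel the NPs brain (258) against the untreated brain, with the line of equality solid and 2-fold limits dotted. Barrier genes lie below the lower dotted line on the left, 28 of 29 being called lower in the intestine, and near the solid line on the right.

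Matrix, sprouting, caveola and activation lists held more genes called higher than lower in the intestine, beside 5.48% of all genes called higher and 11.3% lower. Of 17 basement membrane genes 8 were called higher, 7 were not called and 2 (Fn1 and Mgp) were lower. Their median log2 ratio was 0.50. Col4a1 had 1722 CPM beside 354 and 411, and Lamb1, a laminin chain, 354 beside 17 and 8.11 CPM. Of 11 measured sprouting genes 7 were called higher, among them Col4a1, Col4a2 and Lamb1 of the basement membrane list, and none lower. Of 9 caveola genes 6 were called higher, among them Cav1 (4.51-fold (3.88 to 5.24) the untreated brain). Leukocyte adhesion genes divided, with 4 of 12 measured called higher and 2 lower, at a median log2 ratio of 0.20. Venous genes were higher in 6 of 11, with Selp at 158 CPM beside 0 UMIs in both brain libraries, whereas Vcam1, an integrin ligand, was lower at 32.6 beside 78.8 and 111 CPM. In the BMP list the targets Id1 and Id2 and the inhibitors Smad6 and Smad7 were called lower, and Smad1 and Smad5 higher. The other 9 of 15 measured genes were not called, and Id1 had 363 beside 1359 and 1655 CPM. Interferon genes were higher in 12 of 18 and the heat shock and immediate early list in 14 of 18. All 8 measured epithelial genes were higher too, and the part of RNA from neighbouring cells or of dissociation in these lists was not tested.

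Hox genes, which mark the position of a cell along the body axis, were read in the intestine and hardly in the brain. The 67 barcodes held 133 UMIs of Hox genes (619 CPM), led by Hoxa7 with 20 and Hoxb4 with 14, beside 10 and 6 UMIs in the untreated and NPs brain endothelium. Of the 133, 12 (9.02%) belonged to groups 10 to 13, the posterior genes. In the fibroblast-type barcodes of the same library 100 of 256 (39.1%) were posterior, led by Hoxa10 with 47. The lymphatic-like barcodes held 22 Hox UMIs, 3 of them posterior.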

How the data were processed

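Single-cell RNA-seq (10x Genomics 3' kit) was deposited for 4 libraries, each the only library of its group. The deposited values are UMI counts per gene and barcode for 55450 genes, made by the authors with Cell Ranger 5.0.1 on GRCm38, per the submitters' processing notes. Barcodes per library numbered 20368, 19918, 11754 and 12226 (untreated and NPs intestine, untreated and NPs brain), with 116394801, 127772838, 70594935 and 63889853 UMIs. No further normalisation or doublet removal is given in the sources used here.

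Counts were summed over the barcodes of a class and scaled to a total of 1000000 (CPM). Ratios add 10 CPM on the log2 scale for calls, which needed a 2-fold difference and 20 UMIs in the higher group. A 0 was replaced by 3 counts over the group to give a bound. Intervals are exact Poisson, exact binomial or conditional binomial at 95% and cover counting error only, since no group has a replicate and no test was possible. The members, the 32 gene lists and the comparisons were chosen with earlier results of these data known. Named genes were the selecting and gate genes, the 15 largest ratios to other barcodes, 10 each way in the lymphatic (20 UMIs) and brain (50 UMIs) comparisons, and up to 8 per list. Of 406 list genes 405 were in the files. Rankings left out mitochondrial, ribosomal, haemoglobin and unnamed genes. Lists named here for other cells, which gave few UMIs in the endothelial barcodes, are in the report, and of platelet and red cell, enteric glia and mesothelium genes none was called higher than in other barcodes. Near-identical copies (Ccl21a, Ly6c1, MHC class I genes) make those levels uncertain. Sub-clusters came from Leiden clustering (scanpy 1.11.5, leidenalg 0.10.2), doublet scores from Scrublet, all in Python 3.11.15 with numpy 2.4.6 and scipy 1.17.1. The ratios and intervals were tested on simulated data.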

Additional observations from a re-analysis of the deposited data

How the results depend on the processing

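No paired analysis was possible because each group had 1 library and the labels give no replicate numbers. Across alternatives, 45 to 75 barcodes of the NPs intestine met the rule. The untreated intestine gave 3 at a minimum of 3 selecting UMIs, 0 at a minimum of 6 and 0 without barcodes holding fewer than 3 endothelial genes (added after the data were seen). A minimum of 6 left 2 lymphatic-like barcodes. Requiring 0 UMIs of Epcam, Col1a1 and Col3a1 left 5 lymphatic-like and 5 venous-like barcodes and 28 genes higher in the lymphatic type. Naming by sub-cluster gave 25 arterial-like barcodes.

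Counts of called genes moved with depth and scale. With barcodes thinned to 1000 UMIs, 217 genes were higher and 2761 lower than in other cells, 199 higher and 775 lower than in brain, and 10 higher and 155 lower in the lymphatic type. With 50 CPM added, 605 were lower than in other cells, and 317 were higher and 253 lower than in brain. With the median ratio set to 0, 90 were higher and 277 lower in the lymphatic type. At 50 UMIs per gene, 297 were higher than in other cells, 340 higher than in brain, and 13 higher and 151 lower in the lymphatic type. The cause of the other changes was not tested.

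The genes followed here were picked for the largest ratios in the same counts, so keeping a 2-fold ratio is no separate support for them. The selecting and gate genes, whose direction the choice of barcodes fixes, are left aside. Of the others, 11 leading genes kept their direction and a 2-fold ratio in 143 of 143 values, and 15 of the lymphatic comparison in 195 of 195. Of 19 of the brain comparison, 15 did so in every alternative, and Mmrn1 reversed, to -0.0547, without the lymphatic-like barcodes (added after the data were seen). Ttr fell to a log2 ratio of -3.68 and Enpp2 to -2.04 when 0 UMIs of Epcam, Col1a1 and Col3a1 were required.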
